A study of Mus musculus with 6 samples.

Results

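The Krüppel-like factors described here are the 10 genes Klf2, Klf3, Klf4, Klf5, Klf6, Klf9, Klf10, Klf13, Klf15 and Klf16, chosen by name from the 24083 gene symbols of an RNA-seq table. All 10 were in the table and were divided by role into the naive pluripotency factors Klf2, Klf4 and Klf5 and the 7 other paralogs. The table holds polyadenylated RNA of mouse embryonic stem cells, 3 libraries with wild-type Nanog (WT) and 3 libraries with the R153A form of Nanog, an arginine-to-alanine substitution in this homeodomain protein. Both groups were grown in serum medium with LIF on gelatin without a further treatment. The parental line, the way R153A was introduced and whether a group is 1 clone or several were not given in the sources used here. Nor do the labels say that libraries came from separate cultures, so p-values measure the spread between these libraries, which may be technical.

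Krüppel-like factors are transcription factors that bind GC-rich and CACCC-type DNA through zinc fingers at their carboxyl terminus, and they differ mostly in the amino-terminal part that recruits coactivators or corepressors. In mouse embryonic stem cells KLF2, KLF4 and KLF5 overlap in function: they occupy many of the same sites as NANOG, OCT4 and SOX2, and losing them together lets the cells differentiate. Klf4 is induced by LIF through STAT3, KLF2 protein is lowered by ERK signalling, and Klf5 is also needed in the early embryo for the trophectoderm and the inner cell mass. Several of the other paralogs are repressors, KLF3 through CtBP and KLF9, KLF10, KLF13 and KLF16 through SIN3A.

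Promoter sequences were taken for the members from RefSeq (build GRCm38.p6), as the 250 bases before the annotated start, and 7 of the 10 genes matched; Klf5, Klf10 and Klf16 did not. Those of Klf2 and Klf4, which fell in R153A, and of Klf6 and Klf13, which rose, are shown 5′ to 3′ on the strand of the gene so that the 2 directions can be compared. Capitals mark the GC box GGGCGG and the CACCC box CACCC, either strand, the kinds of sequence that Krüppel-like and SP factors bind. The windows are chr8:72318812-72319061 (plus strand), chr4:55532476-55532725 (minus), chr13:5861239-5861488 (plus) and chr7:63938916-63939165 (minus).
Klf2: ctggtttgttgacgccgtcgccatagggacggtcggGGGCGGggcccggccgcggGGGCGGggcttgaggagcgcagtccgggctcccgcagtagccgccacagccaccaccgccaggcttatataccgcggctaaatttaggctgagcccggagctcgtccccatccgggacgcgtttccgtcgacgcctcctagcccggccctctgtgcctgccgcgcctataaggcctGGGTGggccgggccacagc
Klf4: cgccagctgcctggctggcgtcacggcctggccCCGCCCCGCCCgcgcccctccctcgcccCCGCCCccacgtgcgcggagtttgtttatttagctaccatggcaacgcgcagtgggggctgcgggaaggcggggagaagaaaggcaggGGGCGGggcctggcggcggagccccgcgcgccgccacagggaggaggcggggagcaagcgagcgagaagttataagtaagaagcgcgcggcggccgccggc
Klf6: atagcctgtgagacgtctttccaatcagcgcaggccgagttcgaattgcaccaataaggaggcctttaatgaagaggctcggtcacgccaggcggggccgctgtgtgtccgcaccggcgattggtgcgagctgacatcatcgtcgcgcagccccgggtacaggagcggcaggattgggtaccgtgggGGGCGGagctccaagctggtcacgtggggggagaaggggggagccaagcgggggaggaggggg
Klf13: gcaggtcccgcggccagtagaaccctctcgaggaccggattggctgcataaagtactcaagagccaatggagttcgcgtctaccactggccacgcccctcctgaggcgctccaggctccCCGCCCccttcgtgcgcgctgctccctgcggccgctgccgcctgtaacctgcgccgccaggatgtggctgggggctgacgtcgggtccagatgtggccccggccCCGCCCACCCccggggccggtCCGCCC

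The GC box occurred 2 times in the Klf2 window, 4 times in that of Klf4, 1 time in that of Klf6 and 3 times in that of Klf13. Of 32851 RefSeq windows of the same length, 32.7% held at least 1 GC box, 16.7% at least 2 and 4.09% at least 4. The CACCC box was found 1 time each for Klf2 and Klf13, where it shared bases with a GC box in the Klf13 window, and not in the other 2 windows. It was present in 52.0% of all windows. Of the 3 matched windows not shown, that of Klf3, which fell, held the most boxes of the 7, with 6 GC boxes and 5 CACCC boxes. Those of Klf9 and Klf15 held 1 CACCC box each, with 1 GC box for Klf15 and none for Klf9. A STAT-type TTCNNNGAA was found 1 time in the Klf9 window, in none of the other 6 and in 7.02% of all. The 7 matched Klf windows had 59.6% to 78.4% G and C bases, against a median of 52.4% over all windows, and the comparison was not matched for this composition. Genes that fell and genes that rose both carried GC boxes, and a match is only a description of the letters in this window.

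Expression is on the FPKM scale, that is, fragments counted relative to the length of a gene and to the size of a library. Levels of different genes are set side by side on this scale, though the gene lengths used were not given. The 6 libraries had FPKM sums of 360152 to 382086, and the read depth behind them is unknown. Embryonic stem cell markers were present in every library, with a summed FPKM of the 8 genes fixed for this check of 4021 to 4732 in WT and 2096 to 2178 in R153A. Dppa5a was the largest part of that sum, with a mean of 2575 FPKM in WT and 936 FPKM in R153A. Nanog itself, the altered gene, stood at 253 ± 10.02 FPKM (SD, n = 3) in WT and 123 ± 5.16 in R153A, a level that does not check the substitution itself. The 8 fibroblast or feeder markers summed to 19.5 to 20.8 FPKM in WT and 25.3 to 26.9 in R153A, most of it Fbln1 (14.3 ± 0.555 and 17.6 ± 0.638 FPKM). Col1a1 stood at 1.17 ± 0.258 and 2.82 ± 0.102 FPKM, Col1a2 at 0.707 ± 0.0448 and 1.70 ± 0.199, Col3a1 at 0.0600 ± 0.0192 and 0.316 ± 0.0584 and Dcn at 0.0425 ± 0.0337 and 0.241 ± 0.0561, each higher in every R153A library than in any WT library. Lum was listed at 0 in the 3 WT libraries, as was the mesoderm marker Mesp1. No marker was at 0 in all 6 libraries. Markers of primitive endoderm (6 genes) summed to 3.41 to 4.62 and 5.58 to 6.34 FPKM, those of trophectoderm (6 genes) to 4.42 to 6.61 and 13.3 to 14.5, and those of mesoderm (4 genes) to 0.180 to 0.309 and 4.07 to 5.03. Within the primitive endoderm list Foxa2 rose (0.176 ± 0.0811 to 3.40 ± 0.341 FPKM) while Sox7 fell (2.18 ± 0.473 to 0.278 ± 0.0915 FPKM). Dab2 was higher and Sox17 lower in R153A, both under 1 FPKM, and the groups of Gata4 and Gata6 overlapped. In the trophectoderm list the means of Krt7 (1.20 to 7.61 FPKM) and Cdx2 (0.117 to 2.78) rose and that of Eomes (3.38 to 2.42) fell. Gata3 was higher but under 1 FPKM, and the groups of Elf5 and Tfap2a overlapped. Most of the mesoderm sum in R153A was T (0.117 to 4.19 FPKM). Mixl1 was higher but under 1 FPKM, and the groups of Kdr and Mesp1 overlapped. The 4 neuroectoderm markers summed to 48.7 to 57.98 FPKM in WT, nearly all of it Tubb3, and to 37.7 to 40.04 in R153A. This sum hides opposite changes, as Tubb3 fell from 48.3 ± 4.07 to 15.3 ± 0.112 FPKM and Nes rose from 3.99 ± 0.444 to 23.3 ± 1.21 FPKM. At a limma adjusted p under 0.05, 37.5% of all genes tested were higher in R153A and 22.3% lower. By the limma test, 7 of 8 stem cell markers fell, 3 of 4 tested fibroblast markers rose, and of the tested markers 1 of 3 rose and 1 fell for primitive endoderm, 2 of 3 rose and 1 fell for trophectoderm, the 1 tested rose for mesoderm, and 1 rose and 1 fell for neuroectoderm. Of the risen markers Col1a2, Foxa2, Cdx2 and T were under 1 FPKM in every WT library and entered the test only through R153A. The fallen Sox7 was under 1 FPKM in every R153A library and entered only through WT, so these counts support nothing. The called markers moved with the 2 groups, and their part in the Klf changes was not tested. In such bulk RNA fewer cells of a type and less RNA per cell cannot be told apart.

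The 3 naive factors all fell in R153A cells, Klf4 to 14.3% of its WT mean, Klf5 to 49.2% and Klf2 to 56.5%. Of the 7 other paralogs, Klf3, Klf10 and Klf16 also fell, Klf6 and Klf13 rose, and Klf9 and Klf15 did not pass the test. Each log2 fold change is the R153A mean less the WT mean of log2(FPKM + 1), which understates the change of genes at low FPKM, and a gene was called at a limma adjusted p under 0.05. By this rule 6 of the 10 members fell and 2 rose, while across the 11817 genes tested 59.8% were called, 22.3% lower and 37.5% higher. The 8 called members against 2 not called stand against a background in which most genes differed. All 10 members had at least 1 FPKM in every library, so none entered the test through 1 group only. The median log2 fold change was -0.99 over the naive factors, -0.08 over the other paralogs and 0.07 over all genes tested. The share of higher genes among the calls was 62.7%, but 45.9% under median-ratio scaling and 48.1% under quantile normalization. Median-ratio scaling moved the median of all genes by -0.11, and the 8 called members kept their direction and call under every scaling tried.

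**Figure D1:**
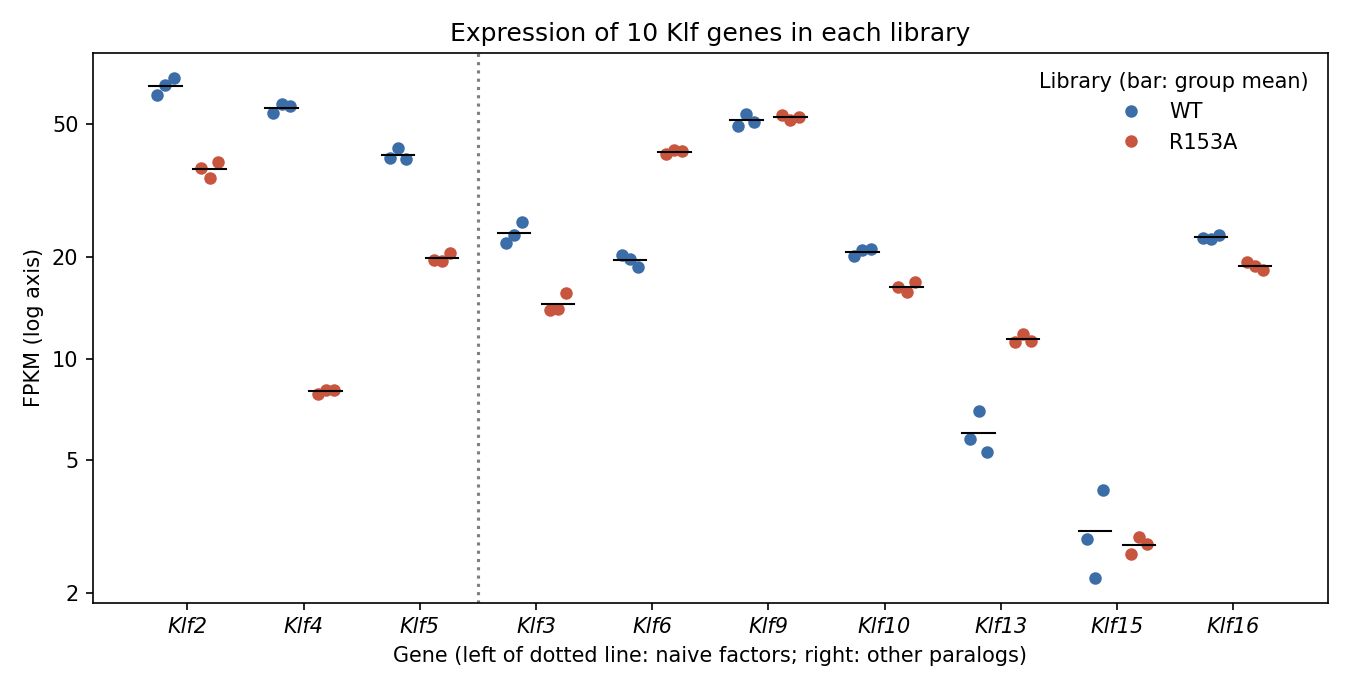
FPKM of each of the 10 Klf genes in the 6 libraries on a log axis, with blue points for WT, red points for R153A and a black bar at the mean of each group. The groups do not overlap for 8 genes; Klf9 and Klf15 overlap, and Klf4 drops from 55.9 to 7.98 FPKM.

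Klf4, the reprogramming factor and LIF target, was measured at 54.0, 57.1 and 56.5 FPKM in the 3 WT libraries and at 7.85, 8.07 and 8.04 FPKM in the 3 R153A libraries. Every R153A library lay far below every WT library, with little spread inside either group. Its log2 fold change was -2.66 (SE 0.0502, 95% interval -2.77 to -2.55, limma adjusted p = 4.6e-11). On this scale only Tcl1 among the 11817 genes tested had a lower value, which puts Klf4 at rank 2 from the lowest. The rank was 12 and 9 at pseudocounts of 0.1 and 0.5, 9 under TPM, 4 under quantile normalization and 3 without any single library, and it stayed at 2 in the other alternatives. Prdm14 and Serpinb6c fell further than Klf4 by the ratio of mean FPKM (8.89-fold and 10.01-fold, against 6.999-fold).

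Klf5, a factor of both the inner cell mass and the trophectoderm, stood at 39.7, 42.4 and 39.2 FPKM in WT and in R153A at 19.6, 19.5 and 20.6 FPKM. The groups did not overlap, and the R153A values were close to each other. The log2 fold change of Klf5 was -0.99 (SE 0.0522, 95% interval -1.10 to -0.87, limma adjusted p = 4.6e-08), rank 285 from the lowest. Klf2, whose protein ERK signalling destabilises, gave 61.0, 65.2 and 68.5 FPKM in WT and 36.8, 34.6 and 38.5 FPKM in R153A. Its R153A libraries were again all lower than its WT libraries, by a smaller ratio than for Klf4. The log2 fold change of Klf2 was -0.81 (SE 0.0585, 95% interval -0.94 to -0.68, limma adjusted p = 5.2e-07), rank 430 from the lowest.

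Whether the naive factors differed in how far they fell was asked within each library, as the difference between their log2(FPKM + 1) values, for 3 pairs of genes. Klf4 minus Klf2 was -0.17, -0.19 and -0.27 in WT and -2.10, -1.97 and -2.13 in R153A. Klf4 thus lay just under Klf2 in WT and far under it in R153A, a shift of -1.85. Klf4 minus Klf5 was 0.44, 0.42 and 0.52 in WT and -1.22, -1.18 and -1.25 in R153A, a shift of -1.68. The order of this pair turned over: Klf4 was the higher of them in each WT library and the lower in each R153A library. Klf2 minus Klf5 was 0.61, 0.61 and 0.79 in WT and 0.87, 0.79 and 0.88 in R153A, a shift of 0.18 that is small beside the other 2. For each of the 3 pairs the exact two-sided permutation p was 0.1 (0.1 after Benjamini-Hochberg adjustment over the 3 pairs), the smallest that 3 against 3 libraries allow, so none could pass a threshold of 0.05.

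Among the repressor paralogs that fell, Klf3, whose protein works with CtBP, gave 22.0, 23.3 and 25.5 FPKM in WT and 13.9, 14.0 and 15.7 FPKM in R153A. The groups stood apart, and the log2 fold change was -0.66 (SE 0.0678, 95% interval -0.81 to -0.51, limma adjusted p = 8.1e-06). In the GENCODE M21 annotation 404 bases of Klf3 exons overlap exons of Gm20033 on the other strand, and without knowledge of strand use their reads cannot be told apart. No other member had exons shared with another gene there.

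Klf10, a TGF-beta-inducible early gene whose product represses through SIN3A, was found at 20.2, 21.1 and 21.1 FPKM in WT and in R153A at 16.3, 15.8 and 16.9 FPKM. Its groups stood apart, with a log2 fold change of -0.33 (SE 0.0527, 95% interval -0.45 to -0.22, limma adjusted p = 2.4e-04). Klf16, a related SIN3A-binding repressor, was at 22.9, 22.6 and 23.3 FPKM in WT and 19.4, 18.9 and 18.3 FPKM in R153A. This was the smallest change that passed among the 10, a log2 fold change of -0.27 (SE 0.0502, 95% interval -0.38 to -0.16, limma adjusted p = 7.5e-04). Both genes had groups that did not overlap, as did 65.0% of all genes tested.

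Klf6, a widely expressed activator also known as a growth suppressor, moved the other way, from 20.3, 19.8 and 18.7 FPKM in WT to 40.5, 41.7 and 41.6 FPKM in R153A. All 3 R153A values were above every WT value, and the mean was 2.10-fold higher. Its log2 fold change was 1.04 (SE 0.0502, 95% interval 0.93 to 1.15, limma adjusted p = 2.3e-08), rank 649 from the highest. Klf13, a SIN3A-binding family member studied mainly in lymphocytes and heart, was at 5.78, 6.996 and 5.27 FPKM in WT and 11.2, 11.8 and 11.3 FPKM in R153A. The WT libraries of Klf13 spread more than those of R153A, and still the groups did not overlap. Its mean rose 1.903-fold, with a log2 fold change of 0.83 (SE 0.0866, 95% interval 0.64 to 1.03, limma adjusted p = 9.0e-06), rank 1005 from the highest. On the log2(FPKM + 1) scale changes of 1 or more in size passed for 8.29% of all genes tested, and among the members for Klf4 and Klf6. Klf5 also reached this size at both other pseudocounts and under median-ratio, TPM and quantile scaling (-1.004 to -1.103), and Klf6 fell short of it under median-ratio scaling (0.92) and quantile normalization (0.99).

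Klf9, induced by thyroid hormone and glucocorticoids in other tissues, gave 49.3, 53.7 and 50.8 FPKM in WT and 53.1, 51.4 and 52.3 FPKM in R153A. The groups overlapped, and the log2 fold change of 0.03 did not pass (95% interval -0.08 to 0.14, limma adjusted p = 0.638). That interval leaves out changes as large as those of the 8 called members. The sign of Klf9 turned under median-ratio scaling (-0.09) and quantile normalization. Klf15, a metabolic regulator of liver and muscle, had the lowest level of the 10, at 2.90, 2.23 and 4.07 FPKM in WT and 2.61, 2.95 and 2.81 FPKM in R153A. The R153A values lay inside the WT range, which WT replicate 3 widened. Its log2 fold change was -0.08 with a 95% interval of -0.38 to 0.22 (limma adjusted p = 0.646), and 0.09 without WT replicate 3.

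**Figure D2:**
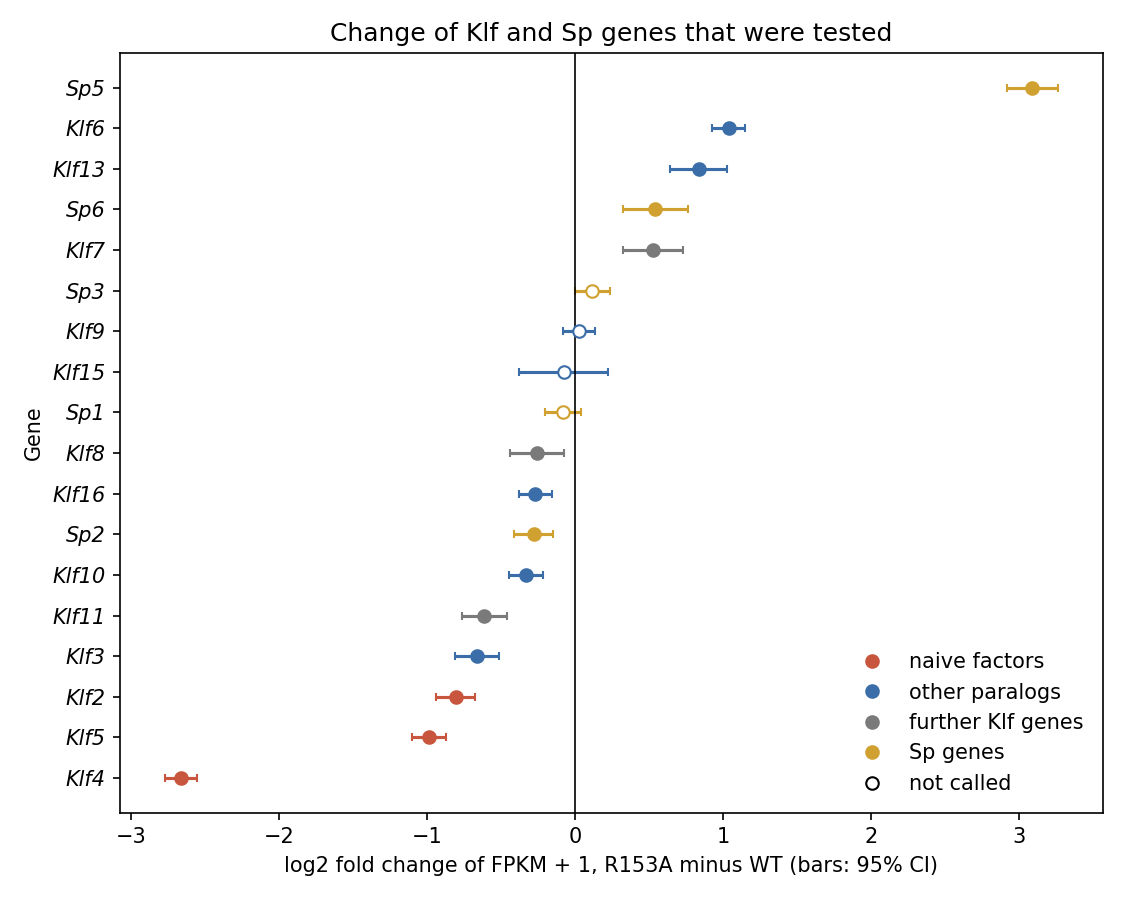
Log2 fold change of FPKM + 1 (R153A minus WT, horizontal axis) with 95% intervals for the 18 Klf and Sp genes that were tested, sorted by value; filled points were called and open points were not. Klf4 lies at -2.66, apart from the next lowest gene, Klf5, at -0.99, while Klf6 and Klf13 lie above 0.

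The changes reordered the family. By mean FPKM in WT the order was Klf2, Klf4, Klf9 and Klf5, each separated from the next with no library in common range, then Klf3, Klf16, Klf10 and Klf6 between 23.6 and 19.6 FPKM. Within that second block, Klf3 and Klf16 overlapped in their libraries, as did Klf10 and Klf6. In R153A the order was Klf9, Klf6, Klf2, Klf5, Klf16, Klf10, Klf3, Klf13, Klf4 and Klf15, and no neighbouring members in this order overlapped. Klf4 went from position 2 of the 10 to position 9, and Klf6 from position 8 to position 2.

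The naive factors together summed to 155, 165 and 164 FPKM in the WT libraries and to 64.3, 62.1 and 67.1 FPKM in the R153A libraries. The 7 other paralogs summed to 143, 150 and 149 FPKM in WT and to 157, 157 and 159 FPKM in R153A. This second sum had a higher mean in R153A as deposited (157 against 147 FPKM) but a lower one after median-ratio scaling (150.3 against 152.9), so no direction is given for it. As a share of the summed FPKM of the 10 genes, which no linear scaling changes, the naive factors made up 52.2% ± 0.307 (SD, n = 3) in WT and 29.1% ± 0.657 in R153A. Klf4 alone went from 18.1% ± 0.0534 to 3.60% ± 0.0806 of the sum, and Klf6 from 6.37% ± 0.408 to 18.6% ± 0.413. Klf9, whose level did not pass the test, went from 16.6% ± 0.419 to 23.5% ± 0.413 of a smaller total. These shares are descriptions of chosen genes, rest on the gene lengths used for FPKM and carry no test.

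**Figure D3:**
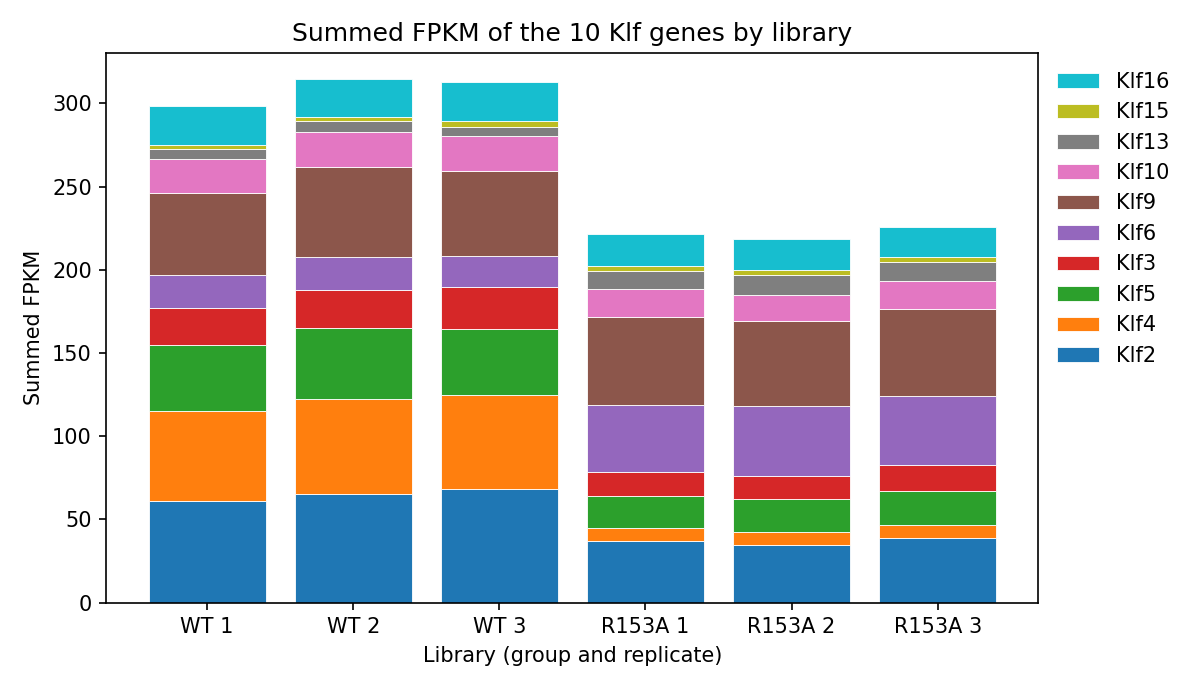
Summed FPKM of the 10 Klf genes in each of the 6 libraries, with 1 coloured segment per gene and the naive factors at the base of each bar. The bars of the WT libraries reach 298 to 315 FPKM and those of R153A 219 to 226, and the Klf4 segment shrinks while the Klf6 segment grows.

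All 7 further Klf genes of the table stayed under 8 FPKM, and the median log2 fold change of the 3 that were tested was -0.26. Klf11, a TGF-beta-inducible relative of Klf10, fell from 7.07, 6.32 and 6.81 FPKM in WT to 3.97, 4.22 and 3.97 FPKM in R153A (limma adjusted p = 1.8e-05, log2 fold change -0.61, SE 0.0694), so both TGF-beta-inducible paralogs were lower. Klf7, a regulator of neuronal genes, rose from 3.89 ± 0.369 to 6.06 ± 0.746 FPKM (log2 fold change 0.53, limma adjusted p = 5.0e-04). Klf8, a CtBP-binding relative of Klf3, fell from 6.91 ± 0.671 to 5.60 ± 0.456 FPKM, a call (limma adjusted p = 0.0194) that ended in 4 of 16 alternatives. The erythroid factor gene Klf1 (0.371 to 0.540 FPKM over the 6 libraries), Klf12 (0.419 to 0.667), Klf14 and Klf17 were below 1 FPKM in every library and were not tested. For Klf14 the 3 R153A libraries had 0.268, 0.291 and 0.125 FPKM, and those of WT 0, 0.0544 and 0.0338. Klf17, a factor of early embryos, stood at 0.624, 0.639 and 0.620 FPKM in WT and 0.280, 0.573 and 0.257 in R153A.

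The SP factors share the zinc fingers and the GC-box preference of the family. Of 9 Sp genes 5 were tested, of which Sp5 and Sp6 rose, Sp2 fell, and the general activators Sp1 and Sp3 did not pass (median log2 fold change 0.12). Across all genes tested 37.5% were called higher and 22.3% lower. Sp5, a WNT-induced factor, went from 0.0802, 0.115 and 0.128 FPKM in WT to 8.64, 7.78 and 8.85 FPKM in R153A (limma adjusted p = 3.2e-10, log2 fold change 3.09, SE 0.0781). It was under 1 FPKM in every WT library and entered the test only through R153A. In R153A its mean of 8.42 FPKM was close to the 7.98 FPKM of Klf4, and the Sp5 libraries (7.78 to 8.85 FPKM) overlapped those of Klf4 (7.85 to 8.07 FPKM). Sp2 fell from 11.5 ± 0.303 to 9.29 ± 0.358 FPKM, and Sp6, an epithelial factor, rose from 1.901 ± 0.328 to 3.21 ± 0.364 FPKM. Sp1 stood at 28.7 ± 1.61 and 27.1 ± 0.532 FPKM and Sp3 at 22.7 ± 0.617 and 24.6 ± 1.17 FPKM. Under median-ratio scaling Sp1 was called lower (limma adjusted p = 0.00668) and the sign of Sp3 turned, while Sp3 was called higher without R153A replicate 2 (0.0498).

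**Figure D4:**
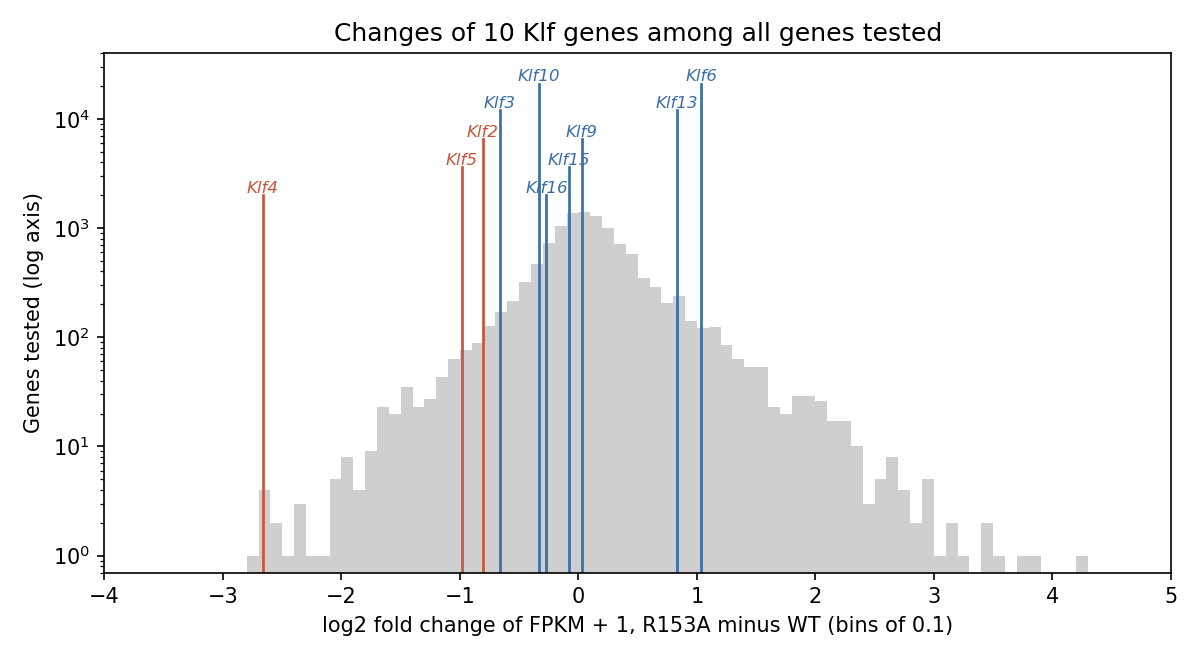
Histogram of the log2 fold changes of all 11817 genes tested (bins of 0.1, log axis for the number of genes) with vertical lines at the naive factors (red) and the other paralogs (blue). Klf4 lies at the left end of the distribution and the remaining 9 members lie between -0.99 and 1.04, where many other genes lie.

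The genes nearest to Klf4 in their pattern were found by the Euclidean distance between log2(FPKM + 1) values centred on the mean over the 6 libraries. With only 2 groups this measure ranks mostly the size of the change. Prdm14, a repressor of differentiation genes, was the nearest (distance 0.125; 16.1 ± 0.602 FPKM in WT and 1.81 ± 0.152 in R153A). Next were Tcl1, an AKT coactivator (distance 0.205), and Serpinb6c, a serine protease inhibitor gene (distance 0.212).

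Upstream of Klf4, the genes of LIF signalling changed in both directions. Of 9 tested, 6 fell and 3 rose, and their median log2 fold change was -0.21. Over all genes tested 22.3% were called lower and 37.5% higher, the shares to set beside this count and those of the lists below. Socs3, the feedback inhibitor that STAT3 induces, fell from 28.1, 31.3 and 31.3 FPKM in WT to 12.7, 12.9 and 12.8 FPKM in R153A (limma adjusted p = 2.4e-08, log2 fold change -1.17, SE 0.0571), beside -0.99 for Klf5 and -2.66 for Klf4. The receptor gene Lifr fell from 1.60 ± 0.0420 to 0.689 ± 0.339 FPKM, its co-receptor Il6st from 12.8 ± 1.01 to 8.84 ± 0.170, and Stat3 from 13.2 ± 0.318 to 9.83 ± 0.535 FPKM. Jak1 and Tyk2 also fell, by calls that ended in 3 and 4 of 16 alternatives. Lif, the cytokine, rose from 0.717 ± 0.0429 to 1.71 ± 0.224 FPKM and entered the test only through R153A, Jak2 rose from 1.02 ± 0.118 to 1.85 ± 0.174 and the phosphatase gene Ptpn11 from 18.7 ± 1.15 to 25.5 ± 0.273 FPKM.

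Of the 10 pluripotency factors that act beside the naive Klf genes, 9 fell and Sall4 did not pass (37.97 ± 2.40 FPKM in WT and 37.3 ± 0.972 in R153A), with a median log2 fold change of -1.63. Under median-ratio scaling Sall4 was called lower too (limma adjusted p = 0.0152). Besides Prdm14, the falls were large for the nuclear receptor gene Esrrb (12.5 ± 3.51 to 2.08 ± 0.728 FPKM), the STAT3 target Tfcp2l1 (38.6 ± 3.15 to 8.84 ± 0.211), the nuclear receptor gene Nr5a2 (8.20 ± 0.510 to 1.32 ± 0.182) and the T-box factor gene Tbx3 (19.04 ± 0.421 to 4.17 ± 0.137), and the order of Tfcp2l1 and Tbx3 depended on the pseudocount. Pou5f1, which encodes OCT4, fell from 688 ± 16.6 to 518 ± 8.84 FPKM. Of 8 genes reported as targets of KLF2, KLF4 or KLF5, of which 5 are also among those factors, 6 fell, 1 rose and Sall4 did not pass (median log2 fold change -0.77). Tcl1 fell from 53.7 ± 1.02 to 7.33 ± 0.804 FPKM and Sox2 from 210 ± 5.13 to 84.5 ± 3.86. Mycn, a MYC family gene, fell from 59.4 ± 1.01 to 41.3 ± 3.55 FPKM. Lefty1, a Nodal antagonist gene bound by KLF4 together with OCT4 and SOX2, rose instead, from 28.9 ± 2.66 to 125 ± 6.13 FPKM.

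Cofactor genes of the family changed in both directions. Of 10 tested, 4 rose, 3 fell and Hdac1, Hdac2 and Crebbp did not pass, with a median log2 fold change of 0.07, the same to 2 decimals as over all genes tested. Hdac1 was called lower under median-ratio scaling (limma adjusted p = 0.0131). Fhl3, a LIM-domain cofactor of KLF3, rose from 1.74 ± 0.401 to 7.95 ± 0.611 FPKM (limma adjusted p = 1.7e-07, log2 fold change 1.71, SE 0.108). The corepressor gene Ctbp1 rose from 26.1 ± 0.874 to 35.1 ± 0.585 FPKM. Sin3b, another corepressor gene, went up from 90.8 ± 3.77 to 124 ± 5.68 FPKM, and the coactivator gene Ep300 rose as well. Ctbp2, Sin3a and the acetyltransferase gene Kat2b fell, Kat2b from 7.35 ± 0.207 to 5.11 ± 0.283 FPKM. The Sin3a call ended in 5 of 16 alternatives. The paralogous pairs Ctbp1 and Ctbp2, and Sin3b and Sin3a, moved in opposite directions.

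Of 7 genes for ubiquitin ligase components that act on KLF2, KLF4 or KLF5, 6 were tested, of which 3 fell, 1 rose and 2 did not pass (median log2 fold change -0.14). Vhl fell from 9.66 ± 0.244 to 7.31 ± 0.449 FPKM and Fbxo22 from 40.1 ± 2.32 to 31.3 ± 1.49 FPKM, while Wwp1 and Fbxw7 did not pass. Btrc fell and Smurf1 rose, by calls that each ended in 6 of 16 alternatives. Fbxo32, which was not tested, was at 0.149, 0.248 and 0.197 FPKM in WT and 1.14, 1.41 and 0.999 in R153A.

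Signalling contexts in which paralogs are known to respond were described by their own lists. Of 10 serum immediate-early genes 8 were tested, of which 4 rose, 2 fell and Fos and Atf3 did not pass (median log2 fold change 0.17). Jun rose from 4.53 ± 0.484 to 12.3 ± 0.571 FPKM, Egr1 from 0.992 ± 0.0656 to 2.68 ± 0.257 and Junb from 15.5 ± 1.99 to 21.1 ± 1.49 FPKM, as did Srf. Ier2 fell from 56.3 ± 4.31 to 36.8 ± 2.97 FPKM, as did Dusp1. Of the TGF-beta response genes described, Id1 (17.1 ± 0.419 to 73.0 ± 2.73 FPKM), Skil (14.6 ± 1.87 to 35.4 ± 1.61) and Smad3 (2.94 ± 0.116 to 6.90 ± 0.260) rose, whereas Smad7, the inhibitory SMAD gene, fell from 24.9 ± 0.993 to 8.63 ± 1.43 FPKM. Tgif1 did not pass, but was called lower under median-ratio scaling (limma adjusted p = 0.00334). The TGF-beta-inducible Klf10 and Klf11 were lower in the same libraries.

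Of 7 glucocorticoid and circadian genes, the context of Klf9 and Klf15, 6 were tested. Sgk1, a glucocorticoid-induced kinase gene, fell from 98.5 ± 4.12 to 34.2 ± 3.00 FPKM and Fkbp5, an immunophilin gene, from 42.9 ± 1.26 to 26.7 ± 1.20 FPKM. The receptor gene Nr3c1 rose from 1.80 ± 0.0587 to 3.21 ± 0.378 FPKM, and Dbp rose by a call that ended under quantile normalization. Tsc22d3 and Per1 did not pass, and the median log2 fold change of the list was -0.07. Under quantile normalization Tsc22d3 (limma adjusted p = 0.0431) and Per1 (0.0185) were called lower, which makes 4 lower and 1 higher, and Per1 was also called lower under median-ratio scaling (0.0242). Klf9 and Klf15, which did not pass either, stood beside a list with 2 genes lower, 2 higher and 2 not called.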

How the data were processed

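The data are 3 WT and 3 R153A RNA-seq libraries, grouped by their titles. The authors deposited 1 table of FPKM values per gene symbol and library. Per the submitters' processing notes the build was mm9 and the tools edgeR 3.26.8, HTSeq 0.11.2, SAMtools 1.9 and Bowtie2 2.3.4.3, with the step of each left unsaid. How FPKM was computed, on which annotation and with which strand setting was not given in the sources used here. With FPKM values only, depth is unknown and no count test was run.

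FPKM was used as log2(FPKM + 1) without scaling. The test covered the 11817 genes that reached 1 FPKM in 3 or more of the 6 libraries, with limma 3.58.1 (R 4.3.3; mean-variance trend, moderated, 2-sided) and Benjamini-Hochberg adjustment over all of them. Intervals are limma's 95% intervals. The fit was tested on simulated data. Alternatives were pseudocounts of 0.1 and 0.5, no filter or a filter at 5 FPKM, quantile normalization, TPM and median-ratio scaling, limma with no trend or with robust moderation, a replicate block, and each library left out in turn with the tested genes kept. Figures used matplotlib 3.10.9 (Python 3.11.15).

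The members and lists were chosen with earlier results of these data known. The text names all members, the other Klf and Sp genes, up to 4 called genes of each list by size of change and the 3 profiles nearest to Klf4. Further genes of a list, such as Il6st, Stat3, Ptpn11, Sall4, Pou5f1, Tbx3, Col1a1, Thy1, Postn, Dab2 and Fbxo32, were named after their values were seen. Promoters came from RefSeq on GRCm38.p6 and exon overlaps from GENCODE M21, both on another build than mm9. One gene of the TGF-beta response list is not reported here, nor is that list's median.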

Additional observations from a re-analysis of the deposited data

How the results depend on the processing

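Across the 16 alternatives, the 8 called members kept their direction and their side of the threshold in each, with log2 fold changes of -2.79 to -2.65 for Klf4, -1.10 to -0.95 for Klf5, -0.93 to -0.77 for Klf2 and 0.92 to 1.07 for Klf6. The replicate block changed no member's call (6876 genes called in all). Same-numbered libraries had deviations correlated at -0.0487, -0.0095 and 0.06, and differently numbered libraries at -0.0539 to 0.0771. Pairing by number was thus not seen, though these correlations over all genes cannot exclude it. The block ended the calls of Jak1 (limma adjusted p = 0.0542), Tyk2 (0.0507) and Btrc (0.0771). Klf9 was -0.0908 under median-ratio scaling and -0.005 under quantile normalization, and Klf15 ranged from -0.23 to 0.09 when a library was left out, the highest without WT replicate 3 (0.0947). Klf8 was -0.2587 without a filter, where it was no longer called (limma adjusted p = 0.0551), and ranged from -0.32 to -0.20 when a library was left out. Over all genes, 2901 were called higher with a filter of 5 FPKM, where 8071 genes were tested, and 4053 lower under median-ratio scaling, where the cause was not tested. Among genes not called, the sign turned under median-ratio scaling for Sp3 (-0.0011), Hdac2 (-0.0887) and Atf3 (-0.0786), under quantile normalization for Hdac1 (0.0032), Crebbp (-0.0409) and Atf3 (-0.1521), and under TPM for Atf3 (-0.0029). When a library was left out, the sign also turned for Sall4 (range -0.0579 to 0.0262), Fos (-0.131 to 0.0487) and Atf3 (-0.0481 to 0.0837). Without counts, the precision of low genes such as Klf15 is known only from the spread of 3 libraries.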
